A study of Mus musculus with 24 samples.

Results

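The intestinal wall carries layers of smooth muscle outside the mucosa, and a piece of gut sampled whole holds muscle and mucosa in a proportion that differs from piece to piece. Among 24 libraries of bulk RNA from the ileum of 24 mice, which the labels call the distal small intestine, the 8 with the highest and the 8 with the lowest level of 4 smooth muscle transcripts were compared and are called muscle-rich and muscle-poor here. The ranking used the mean of log2(CPM + 1) over Myh11, Actg2, Des and Cnn1, where CPM is the count of a gene over the library size normalized by TMM, the trimmed mean of M-values, and scaled to a common total, and the other 8 libraries are called middle. The groups were thus chosen by the measured expression of these 4 genes, and every difference between them below is a description without a test.

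All animals were C57BL/6N, an inbred strain, received at 4 to 5 weeks of age and kept on a diet for 20 weeks before the drug was started and for 10 weeks more. The diet was a control diet with 10 kcal% fat (CD) or a high-fat diet with 60 kcal% fat (HFD), and the CDmetf and HFDmetf animals drank metformin, a drug against type 2 diabetes, at 50 mg/kg body mass/day in those last 10 weeks. No allele was altered in any animal. Each of the 4 arms held 3 males and 3 females, named here M1 to M3 and F1 to F3 by the sex and the biological replicate number in the labels, with 1 library per animal. The labels do not say how the tissue pieces were cut or whether fat was removed from them.

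Smooth muscle cells contract when myosin II, with the heavy chain Myh11, pulls on actin filaments, of which gamma-enteric actin (Actg2) is the form typical of the gut. Calponin (Cnn1) binds these filaments, and desmin (Des) forms the intermediate filaments that tie the contractile apparatus to the dense bodies. Between the circular and the longitudinal layer lies the myenteric plexus of enteric neurons and glia, together with the interstitial cells of Cajal that pace the contractions. The mucosa, by contrast, is covered by epithelium, whose enterocytes absorb food, and a change of genes along the length of the gut marks its proximal and distal parts.

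The 4 ranking genes lie in the mouse genome build GRCm38 at chr16:14194535-14291372 on the minus strand (Myh11), chr6:83512905-83536265 on the minus strand (Actg2), chr1:75360329-75368579 on the plus strand (Des) and chr9:22099216-22109630 on the plus strand (Cnn1). Many smooth muscle genes are switched on by serum response factor, Srf, which binds the CArG box. RefSeq promoters (build GRCm38.p6, the 250 bases before a start site) were found for 44 of the 55 genes in the smooth muscle lists, and the CArG box, a palindrome read alike on both strands, was in those of 5 genes, Filip1l, Ldb3, Myl9, Srf and Vcl, or 10.3% of their 58 promoters, against 1.47% of all 32851 promoters. It was in 0 of the 2 promoters found for the ranking genes. It was not particular to muscle, being also in promoters of Elavl4 (2 of 19 neuron promoters), Defa30 and Itln1 (2 of 8 Paneth cell promoters), Vil1 (1 of 12 general epithelial promoters), Lama2 (1 of 12 matrix promoters) and Acta1 and Myh4 (2 of 6 skeletal muscle promoters). Of 4 other motifs searched on both strands, CAAAGTCCA, a core bound by Hnf4a, was in the promoters of 2 of 14 enterocyte genes, Alpi and Treh, in that of the pancreatic gene Cela2a and in 0.384% of all promoters. The motif letters GTTAATNATTAAC (Hnf1, 0.00913% of all promoters) were in none of the smooth muscle, neuron or enterocyte promoters. Among these, TGACGTCA (cAMP response element, 1.55%) was in those of Pdlim3 and Cartpt, and TTTATGG (Cdx, 2.43%) in those of Ldb3, Srf, Elavl4 and Npy. The letters TTTATGG can also lie inside a CArG box. In other lists TGACGTCA was in promoters of Foxd3 and Gpm6b (2 of 8 glia promoters), Cldn7, Mcm5 and Chgb. TTTATGG was there in promoters of Gfap, Thbs4, Bmp5, Epcam, Agr2, Itln1, Plin4 and Cel. A match of letters is no evidence of binding. The promoters of Des, for a ranking gene, and, as examples of the 2 motifs, of 3 of the 5 muscle genes with a CArG box and of both enterocyte genes with the Hnf4a core are shown 5′ to 3′ with the motif in capitals. They lie at chr1:75360042-75360291 (Des, plus strand), chr2:156775214-156775419 (Myl9, plus strand), chr14:20929148-20929397 (Vcl, plus strand), chr16:57548992-57549241 (Filip1l, plus strand), chr1:87101607-87101856 (Alpi, minus strand), chr9:44672983-44673232 (Treh, plus strand), and that of Myl9 stops 44 bases short of the start site, where another annotated exon begins.
Des: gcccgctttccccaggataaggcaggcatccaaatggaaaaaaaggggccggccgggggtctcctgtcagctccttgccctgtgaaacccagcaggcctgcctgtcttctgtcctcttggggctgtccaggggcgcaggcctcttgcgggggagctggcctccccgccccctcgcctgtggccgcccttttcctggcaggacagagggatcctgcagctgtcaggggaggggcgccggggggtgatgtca
Myl9: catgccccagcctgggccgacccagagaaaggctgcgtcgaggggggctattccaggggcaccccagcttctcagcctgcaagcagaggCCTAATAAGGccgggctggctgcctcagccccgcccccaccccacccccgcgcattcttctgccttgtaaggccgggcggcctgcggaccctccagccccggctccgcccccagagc
Vcl: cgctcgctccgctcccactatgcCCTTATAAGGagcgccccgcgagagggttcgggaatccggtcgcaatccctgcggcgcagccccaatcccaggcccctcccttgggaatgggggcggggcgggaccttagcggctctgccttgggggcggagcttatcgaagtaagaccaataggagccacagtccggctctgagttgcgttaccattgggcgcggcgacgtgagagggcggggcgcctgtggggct
Filip1l: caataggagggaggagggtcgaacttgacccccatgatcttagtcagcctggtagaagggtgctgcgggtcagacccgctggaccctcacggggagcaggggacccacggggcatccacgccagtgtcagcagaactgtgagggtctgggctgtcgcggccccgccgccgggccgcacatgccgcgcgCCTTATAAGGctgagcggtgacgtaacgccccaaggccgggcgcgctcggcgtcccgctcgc
Alpi: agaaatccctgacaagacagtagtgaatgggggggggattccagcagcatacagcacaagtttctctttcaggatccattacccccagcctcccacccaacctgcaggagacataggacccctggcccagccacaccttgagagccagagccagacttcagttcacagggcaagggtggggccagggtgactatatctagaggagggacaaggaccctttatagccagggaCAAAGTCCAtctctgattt
Treh: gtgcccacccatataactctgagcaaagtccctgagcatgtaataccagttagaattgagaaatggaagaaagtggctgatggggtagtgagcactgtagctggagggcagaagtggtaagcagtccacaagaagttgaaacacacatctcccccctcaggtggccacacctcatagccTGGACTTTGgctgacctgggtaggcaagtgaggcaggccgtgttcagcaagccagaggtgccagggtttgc

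The CArG box lay 161 to 152 bases before the start site in Myl9, 227 to 218 in Vcl and 62 to 53 in Filip1l, and the Hnf4a core 19 to 11 bases before it in Alpi and 71 to 63 in Treh. Levels of these genes are given with their groups of genes below.

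The libraries held 1829690 to 40606442 counts on genes, with a median of 4326280 in the muscle-rich and 6364620 in the muscle-poor libraries, so that 3 counts corresponded to 0.102 to 0.958 CPM in the first and 0.0730 to 1.27 CPM in the second. Library CD M3, which was muscle-rich, had 85.4% of its counts on 10 genes, mainly ribosomal RNA, against at most 36.6% in any other library. In 2 libraries, those labelled HFD M2 (middle) and HFD F2 (muscle-poor), transcripts of the sex chromosomes went against the labelled sex. List medians without CD M3 and without these 2 libraries are given below only for enteric neurons, the contractile apparatus and enterocytes. For every list the range with 1 grouped library left out at a time is given, CD M3 and HFD F2 among them.

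The muscle mean was 8.22 ± 0.25 (SD, n = 8) in muscle-rich, 7.81 ± 0.11 (n = 8) in middle and 7.38 ± 0.17 (n = 8) in muscle-poor libraries. It ran without a gap through both borders. The last muscle-rich library, CD M2, stood at 8.02 and the first middle library, HFD M2, at 7.97, while the last middle library, CDmetf M1, stood at 7.66 and the first muscle-poor library, HFD M1, at 7.62. The highest was CDmetf M2 with 8.77 and the lowest CD M1 with 7.17.

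Myh11 ranged over 865 to 1421 CPM (median 1011) in muscle-rich, 473 to 812 CPM (median 676) in middle and 267 to 600.1 CPM (median 467) in muscle-poor libraries, with means of 1064 ± 201 and 444 ± 115 CPM (SD, n = 8 each) in the outer groups. Cnn1 ranged over 81.0 to 189 CPM (median 112) in muscle-rich and 39.6 to 77.3 CPM (median 65.8) in muscle-poor libraries. Des ranged over 315 to 461 CPM (median 349.7) and 196 to 312 CPM (median 241), respectively. For these 3 genes every muscle-rich library lay above every muscle-poor library. Actg2 was spread more closely, with 131 to 288 CPM (median 175) against 84.2 to 154 CPM (median 116), and its ranges overlapped. The differences in mean log2(CPM + 1) were 1.29 for Myh11, 0.89 for Cnn1, 0.60 for Actg2 and 0.56 for Des, so that Myh11 had the largest part in the ranking.

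**Figure D1:**
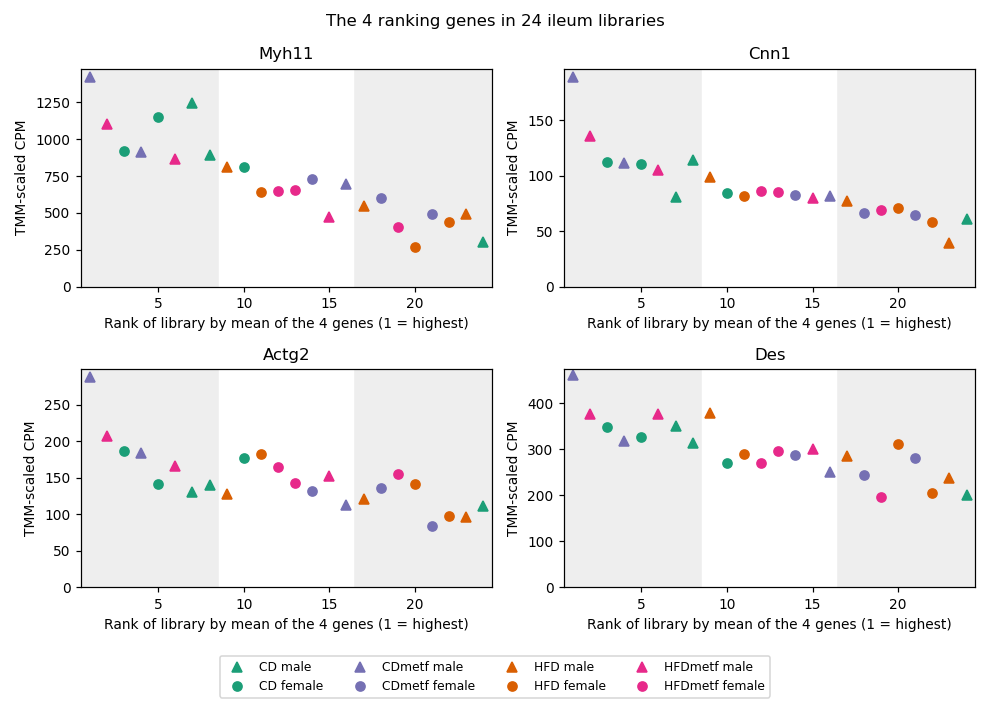
TMM-scaled CPM (y axes, from 0) of Myh11, Cnn1, Actg2 and Des in each of the 24 libraries, placed by rank of their mean (x axes, 1 is highest); colors are study arms, triangles males and circles females, and grey bands mark the 8 muscle-rich and the 8 muscle-poor libraries. Myh11 falls from 1421 CPM at rank 1, and no HFD library lies in the left band.

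The ranks were spread unevenly over the arms of the study. Of the 6 CD libraries, 4 were muscle-rich, 1 middle and 1 muscle-poor, whereas of the 6 HFD libraries 0 were muscle-rich, 2 middle and 4 muscle-poor. CDmetf gave 2, 2 and 2, and HFDmetf 2, 3 and 1. The muscle mean by arm was 7.91 ± 0.37 in CD, 7.89 ± 0.50 in CDmetf, 7.55 ± 0.32 in HFD and 7.87 ± 0.33 in HFDmetf (SD, n = 6 each), differences within the spread of the arms. By labelled sex, males made up 6 of the 8 muscle-rich and 3 of the 8 muscle-poor libraries, and females 2 and 5. HFD F2, counted among these 5 females, had transcripts of the sex chromosomes that went against its label. Replicate number 2 gave 4 muscle-rich and 1 muscle-poor library, number 1 gave 2 and 4, and number 3 gave 2 and 3. Diet and muscle content are therefore partly confounded, and for HFD no library could be compared within the arm.

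**Figure D2:**
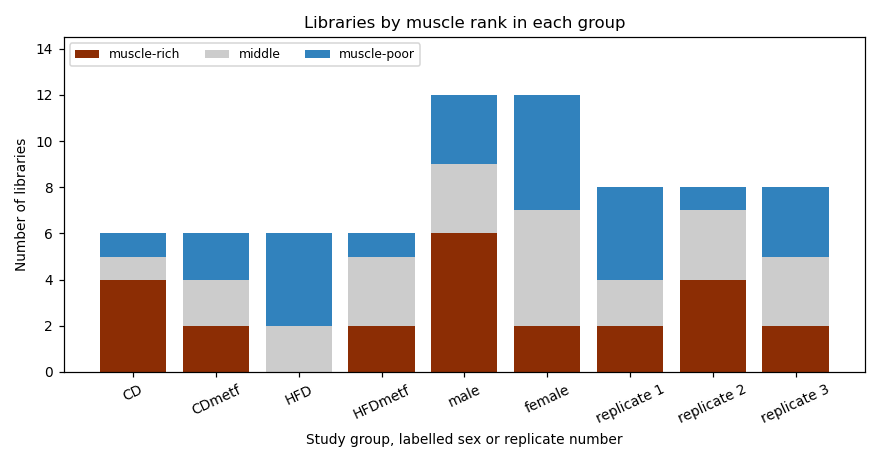
Number of libraries (y axis) that were muscle-rich, middle or muscle-poor in each study arm (6 libraries each), labelled sex (12 each) and replicate number (8 each). HFD holds 0 muscle-rich libraries and CD holds 4, and males hold 6 of the 8 muscle-rich libraries.

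The same genes were followed in the tests of the study's own contrasts, fitted with edgeR's quasi-likelihood test over 14076 genes with arm, sex and replicate number as terms. None of the 4 ranking genes passed. In HFD vs. CD all 4 had a negative logFC, from -0.81 (SE 0.31) for Myh11 (FDR = 1.00) to -0.15 (SE 0.17) for Des (FDR = 1.00), and in HFDmetf vs. HFD all 4 were positive, with 0.43 (SE 0.31) for Myh11 and 0.45 (SE 0.21) for Cnn1 (FDR = 0.652 and 0.640). For comparison, the logFC of Myh11 was -0.12 (SE 0.31) in HFDmetf vs. CDmetf, -0.25 (SE 0.31) in CDmetf vs. CD and 0.41 (SE 0.22) in males vs. females. The 2 contrasts named first share the HFD libraries.

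Over all genes the quasi-likelihood test called 0 of 14076 genes (0%) in each of the 4 contrasts of diet and metformin at an FDR of 0.05, and 1 gene (0.0071%) between males and females. Genes whose p before adjustment was under 0.05 numbered 652 (4.63%) for HFD vs. CD, 1108 (7.87%) for HFDmetf vs. CDmetf, 931 (6.61%) for HFDmetf vs. HFD and 724 (5.14%) for CDmetf vs. CD. DESeq2 called 13, 0, 0 and 4 genes, and limma-voom 0 in each. With the muscle mean as a covariate the calls by the quasi-likelihood test were again 0, while the numbers of genes at a p before adjustment under 0.05 were 427, 1304, 270 and 933. Leaving out 1 library gave 480 (without CD F1) to 1211 (without HFD F3), 695 (without HFDmetf F2) to 1627 (without HFDmetf F3), 401 (without HFDmetf M1) to 2331 (without HFD F3) and 499 (without CD M1) to 911 (without CD M2). These moves were as large in size as those with the covariate, but 427, 270 and 933 lay outside the ranges and 1304 inside. Whether the covariate had an effect was not tested.

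Between muscle-rich and muscle-poor libraries, 183 of 14076 genes (1.3%) were higher without overlap of the 2 ranges and 94 (0.668%) were lower, and 311 genes (2.21%) were higher and 316 (2.24%) lower by at least 1 on the log2(CPM + 1) scale. With total counts as library size the last 2 numbers were 1082 and 95. That scaling drops the TMM factor of the library size, which was 0.205 in CD M3 and at least 0.929 in the other libraries. CD M3 then ranked among the muscle-poor libraries, so these 2 numbers compare regrouped libraries. The 277 genes without overlap became 111 when the means of the replicate numbers were removed and 22 when those of the arms were. The median difference over all genes was -0.03, with a positive difference in 46.3% of genes and a negative one in 53.7%. In 25 lists of marker genes, 246 of 274 genes passed the filter on low counts. Outside the 4 ranking genes, 181 of 242 listed genes (74.8%) were on the positive side, and 21 were higher and 2 lower without overlap. In bulk tissue a lower level can come from fewer cells of a type or from less RNA per cell, and these cannot be told apart.

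**Figure D3:**
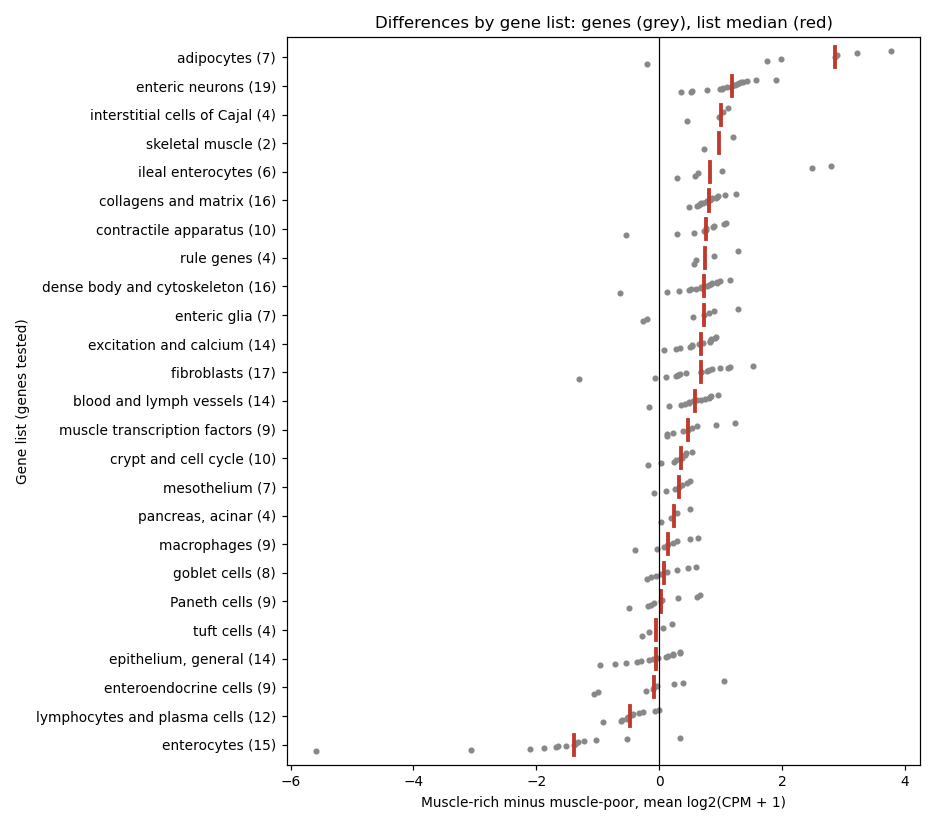
Difference in mean log2(CPM + 1), muscle-rich minus muscle-poor (x axis), of every tested gene in 25 marker lists (y axis, number of genes in parentheses); grey points are genes and red bars list medians. Adipocyte genes lie farthest to the right (median 2.86), followed by enteric neurons (1.18), and enterocyte genes farthest to the left (-1.39).

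Smooth muscle genes outside the ranking genes were higher together. Of 49 tested genes in the 4 other muscle lists 47 (95.9%) had a positive difference, and 15 were higher without overlap. In the contractile apparatus list the median difference was 0.76 (10 genes, 9 positive). Tpm2, a tropomyosin that lies along the actin filament, ranged over 114 to 235 CPM (median 145) in muscle-rich and 52.8 to 104 CPM (median 68.1) in muscle-poor libraries. Acta2, the alpha smooth muscle actin, ranged over 487 to 875 CPM (median 591) and 223 to 438 CPM (median 359). These ranges did not overlap for either gene. Myl9, the regulatory light chain with a CArG box in the promoter shown above, and Mylk, the kinase that phosphorylates it, differed by 0.89 and 0.56, also without overlap.

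Tagln, a common smooth muscle marker, could not be used. It held only 2.20 CPM on average in muscle-rich and 1.35 CPM in muscle-poor libraries and did not pass the filter. Exons of other genes on the opposite strand, Gm48529 and Pcsk7, cover 67.9% of its exon bases, and the strand on which reads were counted is not given in the sources used here. Other listed or named genes also had much of their exons under a gene on the opposite strand. They were Pln (64.7%), Folr2 (63.1%), Bmp5 (46.7%), Nefl (32.8%), Tymp (26.3%), Fgf15 (25.7%), Vcl (25.5%), Adrb3 (24.9%) and Fbn1 (20.1%). The counts of these genes are therefore uncertain. The actins Actg2, Acta2 and Acta1 are related genes on different chromosomes whose exons no other gene overlaps. Whether reads were shared between these actins was not examined.

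In the list of dense body and cytoskeleton genes the median difference was 0.73 (16 genes, 15 positive, 7 without overlap). Lmod1, a leiomodin that nucleates actin filaments, ranged over 35.5 to 84.7 CPM (median 50.1) in muscle-rich and 17.7 to 29.2 CPM (median 21.8) in muscle-poor libraries. Flna, the actin cross-linker filamin A, ranged over 822 to 1479 CPM and 326 to 776 CPM. Both sets of ranges were separate. Vcl (vinculin) and Filip1l, with the CArG boxes shown above, differed by 0.32 and 0.68 with overlapping ranges, and Ldb3, a Z-disc protein of striated muscle with the same motif, by -0.64.

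Among 14 genes of excitation and calcium handling all 14 were positive, with a median of 0.68. Chrm2, a muscarinic receptor through which acetylcholine acts on the muscle, ranged over 39.9 to 59.4 CPM (median 48.5) in muscle-rich and 16.1 to 39.3 CPM (median 26.5) in muscle-poor libraries, and Cacna1c, the pore of the L-type calcium channel, over 25.1 to 46.5 CPM and 13.9 to 24.7 CPM. Neither gene overlapped. Chrm3, a second muscarinic receptor, differed by only 0.08. In the list of muscle transcription factors all 9 tested genes were positive (median 0.46), and all 9 overlapped. Hand2 differed by 1.23, Hand1 by 0.92, the Srf coactivator Myocd by 0.61 and Srf by 0.38.

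Enteric neuron genes had a median difference of 1.18, against 0.68 for the muscle genes that were not used in the ranking. With a pseudocount of 5 instead of 1 CPM, which weighs down genes of low level, the neuron median was 0.64, within the range of the 4 muscle lists (0.36 to 0.71), so the order of neurons and muscle depends on the pseudocount. All 19 tested genes were positive, 14 by at least 1, and 5 did not overlap. Nos1, the nitric oxide synthase of inhibitory motor neurons, ranged over 8.73 to 21.9 CPM (median 11.3) in muscle-rich, 4.33 to 9.37 CPM (median 7.77) in middle and 0.422 to 4.62 CPM (median 3.43) in muscle-poor libraries, so that the mean was 4.51-fold higher. The pan-neuronal gene Uchl1 ranged over 5.55 to 9.98 CPM (median 7.95) in muscle-rich and 0.844 to 3.98 CPM (median 2.16) in muscle-poor libraries, and Tubb3, a neuronal tubulin, over 3.36 to 10.8 CPM (median 6.93) and 0.422 to 3.14 CPM (median 2.53). The choline transporter Slc5a7 (1.11) and the RNA-binding protein Elavl3 (0.99) also stood apart. Vip, a peptide of secretomotor and inhibitory neurons, differed by 1.02 but overlapped, with 6.72 to 35.2 CPM in muscle-rich and 4.09 to 27.5 CPM in muscle-poor libraries, and Ret, a receptor of neuron precursors that other cells of the gut also make, differed by 0.52. Neuron genes were near the detection floor in shallow muscle-poor libraries, where 3 counts corresponded to up to 1.27 CPM, and 5 of the 24 listed genes (Nefl, Cartpt, Nefm, Slc18a3 and Chat) did not pass the filter.

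**Figure D4:**
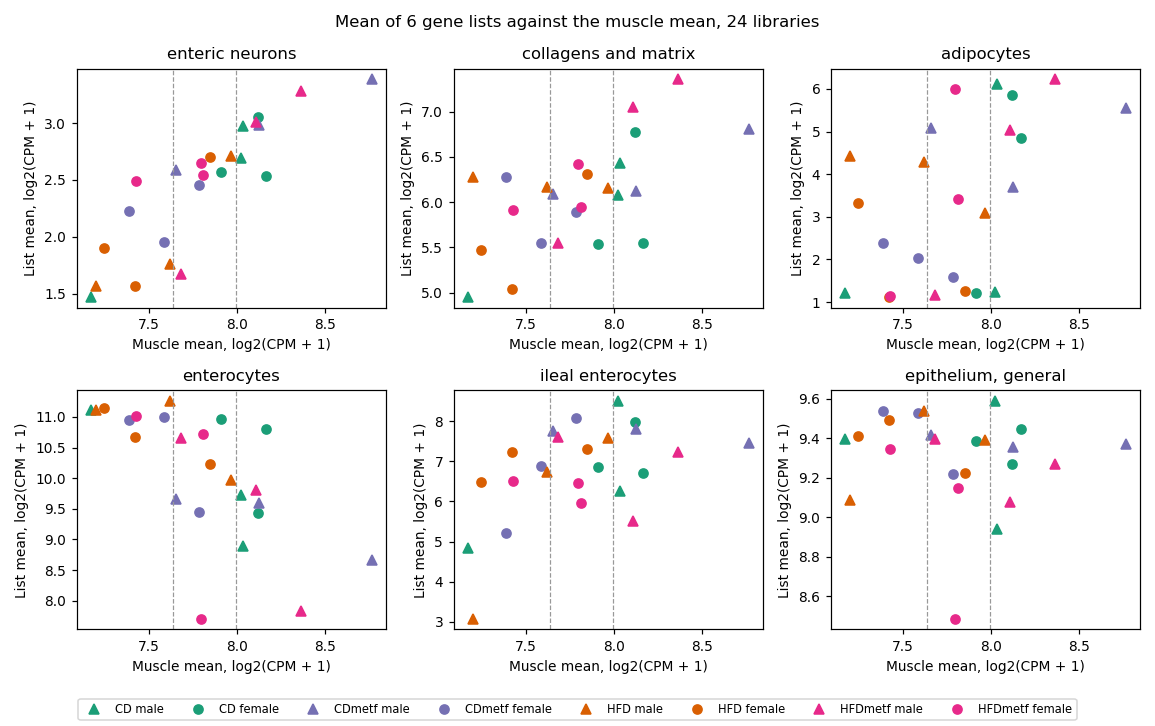
Mean log2(CPM + 1) of 6 marker lists (y axes) against the muscle mean (x axes) in the 24 libraries; colors are study arms, triangles males and circles females, and dashed lines are the borders of the muscle-rich and muscle-poor libraries. The neuron mean spans 2.53 to 3.38 in muscle-rich and 1.47 to 2.49 in muscle-poor libraries, and the enterocyte mean runs the opposite way.

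Of the genes of enteric glia, 7 were tested, with a median of 0.73. The 5 positive genes included Ngfr (1.29), Cdh19 (0.89), the transcription factor Sox10 (0.73) and Gpm6b (0.55), and Entpd2 (-0.19) and Erbb3 (-0.27), which other cells of the mucosa also make, were negative. All 7 overlapped. Gfap and S100b were too low to be tested. The glia median was -0.10 (3 of 7 positive) within HFDmetf, and positive within CD, CDmetf, each labelled sex and each replicate number. All 4 genes of the interstitial cells of Cajal were positive (median 1.00). The receptor Kit ranged over 36.4 to 72.1 CPM (median 59.9) in muscle-rich and 17.7 to 43.4 CPM (median 26.0) in muscle-poor libraries, which overlapped, and Ano1, the chloride channel that sets the slow waves, differed by 0.46. Etv1, a transcription factor of these cells, differed by 1.11, and Thbs4 by 0.97 without overlap.

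Connective tissue genes were higher as well but varied more among muscle-rich libraries. All 16 collagen and matrix genes were positive (median 0.80), yet the ranges of all 16 overlapped. Col1a1 ranged over 49.1 to 299 CPM (median 168) in muscle-rich and 34.4 to 134 CPM (median 60.2) in muscle-poor libraries, and elastin (Eln) over 6.29 to 33.4 CPM and 3.58 to 12.2 CPM. In the fibroblast list 15 of 17 genes were positive (median 0.68), led by the complement component C7 (1.52), Lum (1.16) and Dpt (1.12), matrix proteins of deeper stroma. Fbln1 (fibulin-1) went against the list. It ranged over 79.0 to 252 CPM (median 94.4) in muscle-rich and 144 to 347 CPM (median 286) in muscle-poor libraries, and the value of 252 CPM in CD F1 was the sole muscle-rich value above 117 CPM. Blood and lymph vessel genes had a median of 0.59 (13 of 14 positive), with Cspg4 of pericytes at 0.95 and the endothelial cadherin Cdh5 at 0.84. Mesothelial genes, which mark the outermost covering of the gut, had a median of 0.32 (6 of 7 positive), and of -0.40 when the 12 highest were set against the 12 lowest libraries. Their median was -0.50 (0 of 7 positive) within males, -0.57 (0 of 7) within replicate number 3 and -0.11 (2 of 7) within CD. It was 1.11 (7 of 7) within females and positive in the other subsets, so the list had no one direction.

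Genes of the epithelium as a whole were about as high in muscle-poor as in muscle-rich libraries. The general epithelial list had a median of -0.06 (14 genes, 6 positive), which became 0.51 with total counts as library size. That scaling moved the median of all genes to 0.40 and put CD M3 among the muscle-poor libraries. The adhesion protein Epcam ranged over 843 to 1919 CPM (median 1425) in muscle-rich and 1380 to 2188 CPM (median 1547) in muscle-poor libraries, and Cdh1, the epithelial cadherin, differed by -0.02. The genes of mature villus cells in this list were lower, with -0.72 for villin (Vil1) and -0.96 for Krt20. Goblet (median 0.07), Paneth (0.03), enteroendocrine (-0.08) and tuft cell genes (-0.05) were near the median of all genes under TMM, and with total counts stood at 0.71, 0.36, 0.39 and 0.26, and crypt and cell cycle genes were at 0.35, with Lgr5 of the stem cells at 0.54 and Mki67 of dividing cells at 0.44. The crypt and cell cycle median was -0.27 (3 of 10 positive) within females and 0.72 (10 of 10) within males. Muc2, the mucin of goblet cells, was higher by 0.60.

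Enterocyte genes formed the opposite end. Of 15 genes 14 were lower (median -1.39), and Mttp and Treh were lower without overlap. Mttp, which loads lipid onto apolipoprotein B, ranged over 241 to 1242 CPM (median 469) in muscle-rich and 1523 to 2455 CPM (median 1922) in muscle-poor libraries. Treh, the brush border trehalase whose promoter holds the Hnf4a core, ranged over 32.1 to 127 CPM (median 59.4) and 145 to 327 CPM (median 203), and Alpi, the intestinal alkaline phosphatase with the same core, differed by -1.36. The others included the fatty acid binding protein Fabp2 (-2.11), the apolipoproteins Apob (-1.37) and Apoa1 (-1.51), and the sugar transporter Slc5a1 (-1.39). The exception was Mep1a, a brush border protease, at 0.34.

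Genes that change along the small intestine differed in both directions. Lactase (Lct), made mainly in the jejunum, ranged over 0.772 to 2216 CPM (median 74.6) in muscle-rich and 873 to 3112 CPM (median 2598) in muscle-poor libraries, a difference of -5.59. All muscle-poor libraries held at least 873 CPM, a level that only CD F1 (2216 CPM) and HFDmetf M2 (878 CPM) reached among the muscle-rich. The retinol carrier Rbp2, another proximal gene, differed by -3.07. All 6 ileal genes were positive (median 0.83), but not all rose steadily with the ranking. Fgf15 had nearly equal means, 35.3 CPM in muscle-rich and 34.8 CPM in muscle-poor libraries. Its median was highest in the middle libraries (77.2 CPM, against 32.7 CPM in muscle-rich and 26.3 CPM in muscle-poor libraries). Fabp6, the ileal bile acid binding protein, ranged over 121 to 2632 CPM (median 1492) in muscle-rich and 0.784 to 1273 CPM (median 386) in muscle-poor libraries. Its median, too, was highest in the middle libraries (1642 CPM). Slc10a2, the bile acid transporter that defines the ileum, ranged over 29.5 to 1420 CPM (median 335) in muscle-rich and 4.71 to 157 CPM (median 48.8) in muscle-poor libraries. In HFD M3 the ileal label met Fabp6 at 0.784 CPM and Slc10a2 at 4.71 CPM, with Lct at 2766 CPM. Hormone genes gave no single direction (9 genes, 3 positive, median -0.08). Gcg, the precursor of glucagon-like peptides of the distal gut, was at 1.05 and Cck of the proximal gut at -1.06, while Nts (neurotensin), also a hormone of the distal gut, was at -0.99, with a median of 28.2 CPM in muscle-rich and 60.3 CPM in muscle-poor libraries. Over the 16 libraries muscle content and the markers of position along the intestine moved together, and the ranking does not tell them apart.

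When the part of every gene that was linear on the position markers (log2 Fabp6 + Slc10a2 - Lct - Rbp2) was removed over the 24 libraries, a step added after the values were seen, 0 genes were left without overlap and 34 with a difference of at least 1. The list medians became 0.33 for the contractile apparatus, 0.52 for enteric neurons, 0.31 for interstitial cells of Cajal, 0.43 for collagens and matrix, 0.25 for fibroblasts and -0.40 for enterocytes. All of these were smaller, with the same sign. Lct and Rbp2 are members of the enterocyte list and Fabp6 and Slc10a2 of the ileal list, so the medians of these lists can shrink by construction. The markers also moved with the ranking, so part of the muscle ranking was removed with them. Removing the means of the 4 arms, also added later, left 22 genes without overlap and medians of 0.57 for the contractile apparatus, 0.95 for neurons, 0.74 for collagens and -1.24 for enterocytes.

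**Figure D5:**
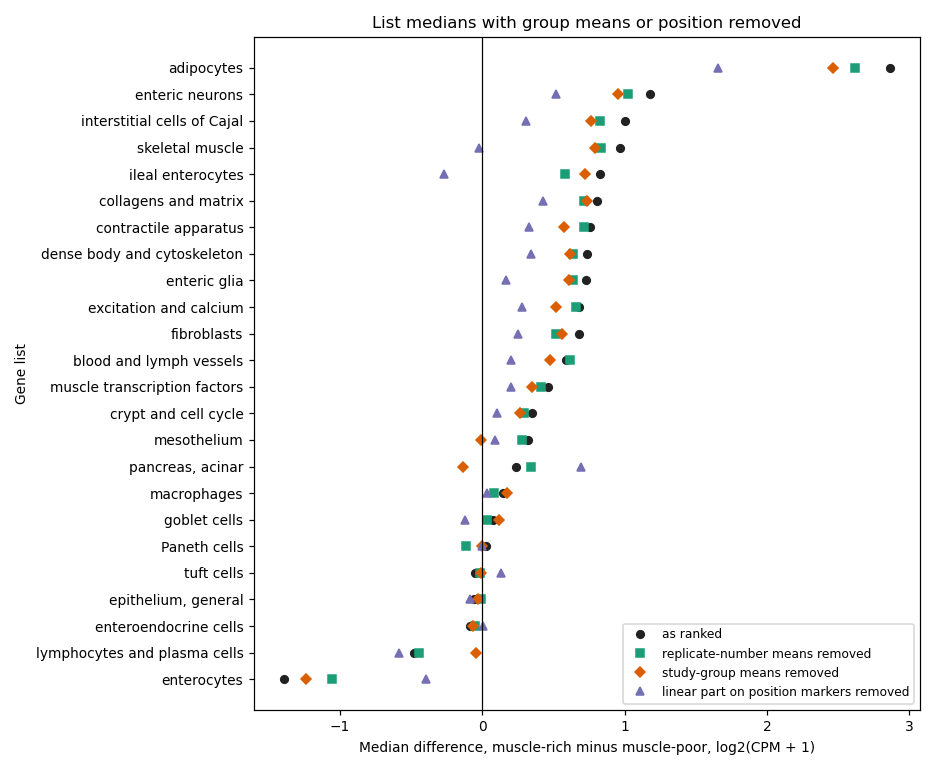
Median difference, muscle-rich minus muscle-poor, in log2(CPM + 1) (x axis) of 24 marker lists (y axis) as ranked (black), after removing the means of the replicate numbers (green) or of the study arms (orange), and after removing the linear part on the position markers (violet). With position removed the neuron median is 0.52 instead of 1.18 and the enterocyte median -0.40 instead of -1.39. The position markers Lct and Rbp2 belong to the enterocyte list, and Fabp6 and Slc10a2 to the ileal list.

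Within the replicate numbers 1, 2 and 3 (2 against 4, 4 against 1 and 2 against 3 libraries) the neuron median was 1.17, 1.44 and 1.05, the contractile median 0.86, 0.68 and 0.74, and the enterocyte median -1.62, -0.88 and -1.49. The fibroblast median was 0.56, 1.23 and -0.01. Within males (6 against 3) and females (2 against 5) neurons stood at 1.62 and 0.75, and enterocytes at -1.94 and -0.77. Within CD (4 against 1), CDmetf (2 against 2) and HFDmetf (2 against 1) neurons stood at 1.40, 1.27 and 0.84, the contractile apparatus at 0.74, 0.83 and 0.69 and enterocytes at -1.41, -1.25 and -1.88. The sign of these 3 lists was therefore the same in every subset that held both kinds of library. The ileal median was 0.94, -0.04 and 0.84 within the replicate numbers, 1.92 within males, 0.50 within females, and 2.21, 1.09 and 0.04 within CD, CDmetf and HFDmetf. It was thus near 0 within replicate number 2 and within HFDmetf. Each of these subsets rests on 1 muscle-poor library, HFD F2 and HFDmetf F3, respectively. In HFD F2 transcripts of the sex chromosomes went against the label, and the enterocyte list holds the position markers Lct and Rbp2. These subsets do not tell muscle content and position apart. Without CD M3 the medians of neurons, the contractile apparatus and enterocytes were 1.14, 0.76 and -1.32, and without HFD F2 (HFD M2 being in neither group) 1.15, 0.75 and -1.46.

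Fat tissue moved with the ranking too. Adipocyte genes had the largest median of any list, 2.86 (7 genes, 6 positive, 0 without overlap), and their summed level ranged over 24.9 to 677 CPM (median 407) in muscle-rich and 34.6 to 209 CPM (median 55.4) in muscle-poor libraries. The adipocyte hormone Adipoq ranged over 0.265 to 70.2 CPM (median 36.4) and 0 to 12.5 CPM (median 2.12). CD M2, a muscle-rich library, held as little as the muscle-poor, with 0.265 CPM of Adipoq and 0.529 CPM of Car3. Cidec, a lipid droplet protein that enterocytes also make, was at -0.20. Whether fat attached to the pieces had a part in other differences was not tested.

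Of the skeletal muscle list only Acta1 (1.20) and Ckm (0.73) passed the filter, while the myosins Myh1, Myh2 and Myh4 were at 0.132, 0.0235 and 0 CPM on average in muscle-rich libraries. Acta1 reached 39.1 CPM in CDmetf M2 and 55.9 CPM in the middle library CDmetf M1. Acinar pancreas genes summed to at most 33.8 CPM in a muscle-rich and 36.1 CPM in a muscle-poor library, with medians of 1.29 and 1.01 CPM.

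Immune genes split. Macrophage genes had a median of 0.15 (7 of 9 positive), with Cd163 at 0.63 and Mrc1 at 0.50, markers of resident macrophages, and Bmp2, a growth factor that macrophages of the muscle layer make, at -0.40. The median was -0.22 (2 of 9 positive) within replicate number 3, -0.05 (3 of 9) within females and -0.19 (3 of 9) within CDmetf, so the list had no one direction. All 12 genes of lymphocytes and plasma cells were on the negative side (median -0.48). The median was 0.24 with total counts as library size, where CD M3 was among the muscle-poor libraries. B-cell genes varied more within the groups than between them. Ms4a1, the B-cell antigen CD20, ranged over 0.639 to 7.37 CPM (median 0.971) in muscle-rich and 0.511 to 34.8 CPM (median 1.70) in muscle-poor libraries. After the means of the arms were removed the list median was -0.04. It was 0.67 (10 of 12 positive) within CD, 0.39 (7 of 12) within HFDmetf and -0.89 (0 of 12) within CDmetf. This list, too, had no one direction.

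Outside the lists, 159 genes were higher and 92 lower without overlap, and genes among the 10 with the largest difference on each side are named. Among the higher were genes of neurons and glia, namely Syt2, a sensor of synaptic release (1.64), Slc7a14, an amino acid transporter family member of nervous tissue (1.63), Ntrk2, the receptor of brain-derived neurotrophic factor (1.55), and Faim2 (1.50). Syt2 ranged over 5.37 to 16.8 CPM (median 11.4) in muscle-rich and 1.18 to 4.67 CPM (median 2.67) in muscle-poor libraries. Hoxb5, a homeobox gene of the gut mesoderm and enteric nervous system, had the largest difference, 1.98, with 4.56 to 26.8 CPM against 1.57 to 3.27 CPM. Adrb3 (1.98), the beta-3 adrenoceptor of fat and smooth muscle, ranged over 1.36 to 11.8 CPM against 0 to 0.901 CPM. Gdf10 (1.57), Thbs2 (1.63) and Osr1 (1.84), a secreted growth factor, a matrix protein and a transcription factor of mesenchymal cells, were also among them.

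The 10 lowest genes were led by those of absorptive and metabolic function. The acetyl-CoA thioesterase Acot12 (-3.48) ranged over 0.285 to 42.9 CPM (median 4.99) in muscle-rich and 56.5 to 123 CPM (median 66.7) in muscle-poor libraries. The brush border sodium-hydrogen exchanger Slc9a3 (-3.05) ranged over 2.28 to 89.8 CPM (median 11.0) and 90.4 to 201 CPM (median 148), so that its ranges were barely separate. The others were Leap2, an antimicrobial peptide that also blocks the ghrelin receptor (-2.42), the gluconeogenic phosphatase G6pc (-2.09), Unc93a (-2.09), the fatty acid ligase Acsl5 (-1.83), the epoxide hydrolase Ephx2 (-1.82), the alcohol dehydrogenase Adh4 (-1.78), the thymidine phosphorylase Tymp (-1.71) and C87977 (-1.64). Exons of other genes overlap part of the exons of Tymp, whose count is therefore uncertain.

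The lists that followed the muscle mean were also read in the study's contrasts, where none of their genes passed the quasi-likelihood test. In HFD vs. CD the median logFC was -0.41 for the contractile apparatus (9 of 10 genes negative), -0.55 for enteric neurons (18 of 19 negative), -0.32 for interstitial cells of Cajal (4 of 4 negative) and 0.65 for enterocytes (11 of 15 positive), beside 0.00 over all genes. In HFDmetf vs. HFD it was 0.37 for the contractile apparatus (9 of 10 positive), 0.74 for neurons (19 of 19 positive), 0.55 for collagens (16 of 16 positive) and -0.70 for enterocytes (15 of 15 negative), beside 0.03 over all genes. Negative logFC made up 7201 and positive 6875 of the 14076 genes in the first contrast, and 6489 and 7587 in the second. The lowest FDR of any gene in these lists was 1.00 in the first contrast and 0.640 in the second, and the numbers at an unadjusted p under 0.05 were 3 of 10 and 0 of 10 contractile genes and 2 of 19 and 4 of 19 neuron genes, beside 4.63% and 6.61% of all genes. Lists of other cell types had larger medians in the same contrasts. Lymphocyte and plasma cell genes stood at 1.51 (12 of 12 positive) and -1.57 (12 of 12 negative), with 7 of 12 at an unadjusted p under 0.05 in each, and acinar pancreas genes at -3.38 and 3.62, with 4 of 4 in each. The acinar values rested on few libraries. Ctrb1 was at 12.4 CPM in CD F1, 14.1 in CD M1, 8.57 in HFDmetf F1 and 7.45 in HFDmetf M2, and at most 1.32 CPM elsewhere. Adipocyte genes stood at -2.61 and 1.55. In HFDmetf vs. CDmetf the median was 0.05 for the contractile apparatus and 0.19 for neurons, and in CDmetf vs. CD -0.16 and 0.05.

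The replicate number, by contrast, passed the test for 2333 of 14076 genes (16.6%). In the 4 smooth muscle lists outside the ranking genes 5 of 49 genes passed, a smaller share than over all genes. They were Hspb6 (FDR = 0.0369), Cacna1h (FDR = 0.00555), Jph2 (FDR = 0.0493), Srf (FDR = 0.0143) and Hand1 (FDR = 0.0293). Of the 4 ranking genes none passed, and Des (FDR = 0.0651) and Cnn1 (FDR = 0.0692) came closest. Hspb6, a small heat shock protein of muscle, was higher in replicate number 2 than in number 1 by a logFC of 0.93 and Hand1 by 0.96. The muscle mean was 8.00 ± 0.39 in libraries of number 2, 7.68 ± 0.42 in number 1 and 7.73 ± 0.32 in number 3 (SD, n = 8 each), differences within the spread. None of the 19 neuron genes and 1 of the 15 enterocyte genes, the peptide transporter Slc15a1 (FDR = 0.0441), passed. Other genes that passed were Fbln1 (FDR = 0.0246), Gcg (FDR = 0.00408) and Pyy (FDR = 0.0355), C1qa and C1qc, Cldn3 and Cdx1, 4 Paneth cell genes and 4 acinar pancreas genes.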

How the data were processed

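RNA from 24 animals was sequenced as 1 library each after ribosomal RNA depletion with a directional kit. The authors trimmed the reads with Trimmomatic 0.39 and mapped and counted them per gene on GRCm38 with STAR 2.5.3a, and deposited raw read counts. Neither the strand counted nor the release of the annotation is given in the sources used here, so overlapping, antisense and near-identical genes are uncertain. The 4 rows of reads outside genes were left out. Counts of 55536 genes were filtered with filterByExpr (14076 kept) and scaled by TMM in edgeR 4.0.16 (R 4.3.3). A pseudocount of 1 CPM was used, which understates differences of low genes. Groups are the 8 highest and 8 lowest libraries by the muscle mean, described without tests. Study contrasts were tested with edgeR's quasi-likelihood test (arm, sex and replicate number as terms), with Benjamini-Hochberg FDR under 0.05, and tested on simulated data. DESeq2 1.42.0, limma-voom (limma 3.58.1), other scalings, filters, pseudocounts, group sizes and leaving out libraries were alternatives. The members and gene lists were chosen with earlier results of these data known. Named genes were the ranking genes, up to 4 per list with the largest difference, members going against their list, the 10 highest and 10 lowest non-overlapping genes outside the lists, and listed genes called in a contrast. A few genes that this rule names are not reported here. Further listed genes were named after their values were seen. Promoters came from RefSeq (GRCm38.p6) and gene positions from GENCODE (GRCm38).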

Additional observations from a re-analysis of the deposited data

Results flagged for a closer look

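Of 290 groups of values looked at, 27 held a library that stood apart from the others of its group by Dixon's criterion. For independent, unselected groups chance gives about 1 in 20. That rate does not apply here, since the libraries were grouped by the ranking genes and single genes were looked at beside their lists. The flags on the ranking genes (CDmetf M2, and Cnn1 in HFD M3) use the values that set the groups and are descriptions only. Most lay in HFD M3 and CD M1, both muscle-poor. In HFD M3 the general epithelial mean was lowest (9.09, log2 scale, against 9.34 in the next library) and so was the goblet cell mean (8.29 against 8.78). There Cnn1 (39.6 CPM), Zg16 (592 CPM), Defa22 (25.1 CPM) and Defa21 (20.0 CPM) were the lowest of the group, the Paneth cell defensins against at least 412 CPM in the other muscle-poor libraries. The tuft cell mean was highest there (5.28 against 3.89), with Pou2f3 at 14.9, Dclk1 at 91.4 and Avil at 27.8 CPM, as was the mitochondrial share of counts (11.4% against 6.37%).

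In CD M1 the acinar pancreas mean was highest (2.93 against 0.44), with Ctrb1 at 14.1, Cpa1 at 5.22, Cel at 4.91 and Pnlip at 5.11 CPM, and the muscle mean of 7.17 was the lowest of the 6 CD libraries (the next was 7.91). Also among the muscle-poor libraries, HFD F2 was lowest for Nos1 (0.422 CPM) and Etv1 (1.69 CPM).

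Among the muscle-rich libraries CDmetf M2 was highest for the ranking genes (8.77 against 8.36), HFDmetf M1 for blood and lymph vessels (5.26 against 4.69) and CDmetf M3 for Thbs4 (7.92 CPM). CD F1 was highest for Fbln1 (252 CPM) and Ms4a1 (7.37 CPM), CD M3 for Dclk1 (47.6 CPM) and for the share of counts on 10 genes (85.4%), and CD M2 was lowest for Car3 (0.529 CPM). What sets these libraries apart was not tested.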

How the results depend on the processing

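The groups depend on where a continuous ranking is divided, and differences within 8 against 8 libraries carry no test. Genes without overlap numbered 277, against 535 with 6 highest against 6 lowest, 2 with 12 against 12, 111 with a replicate block (means of the replicate numbers removed), 180 without the means of the sexes, 22 without those of the arms and 0 without position. Dropping libraries from the groups cannot lower the number of genes without overlap, and adding libraries cannot raise it. Such genes numbered 280 to 639 when 1 of the 16 libraries was left out, with 639 (272 higher, 367 lower) without CD F1, and genes with a difference of at least 1 numbered 546 to 797. The latter were 627 (311 higher, 316 lower), against 1177 (1082 higher, 95 lower) with total counts as library size, 283 (74 higher, 209 lower) with a pseudocount of 5, 112 with 12 against 12, 370 with the replicate block, 315 without the means of the arms and 34 without position. The groups were the same 8 and 8 with RLE size factors and with pseudocounts of 0.25 and 5, and held 7 and 7 of the same libraries with total counts and when ranked by the contractile apparatus list. Under total counts CD M3 moved from the muscle-rich to the muscle-poor libraries.

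With total counts as library size the median of all genes was 0.40 instead of -0.03, and the medians became 1.10 for the contractile apparatus, 1.10 for the dense body list, 1.07 for excitation and calcium, 0.92 for transcription factors, 1.08 for vessels, 0.75 for macrophages, 0.51 for general epithelium, -0.57 for enterocytes, 0.71 for goblet cells, 0.67 for crypt and cell cycle, 0.39 for enteroendocrine cells and 0.24 for lymphocytes and plasma cells. With 12 against 12 they were 0.52 for the contractile apparatus, 0.48 for the dense body list, 0.44 for glia, -0.40 for mesothelium and -0.67 for enterocytes. A pseudocount of 5 gave 0.64 for neurons and 0.34 for glia, and no filter gave 0.16 for skeletal muscle. Without the means of the arms the contractile apparatus was at 0.57. Without position the medians were 0.33 for the contractile apparatus, 0.34 for the dense body list, 0.28 for excitation and calcium, 0.20 for transcription factors, 0.52 for neurons, 0.17 for glia, 0.31 for interstitial cells of Cajal, 0.25 for fibroblasts, 0.20 for vessels, -0.40 for enterocytes and -0.0219 for skeletal muscle, which turned sign. Under total counts the medians compare groups between which CD M3 had changed sides. The cause of the moves was not tested.

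Leaving out 1 of the 16 libraries at a time moved no list median by as much as its spread within the groups. The lowest and highest medians were 0.71 to 0.80 for contractile apparatus, 0.69 to 0.78 for dense body and cytoskeleton, 0.60 to 0.75 for excitation and calcium, 0.40 to 0.59 for muscle transcription factors, 1.11 to 1.27 for enteric neurons, 0.62 to 0.85 for enteric glia, 0.87 to 1.07 for interstitial cells of Cajal, 0.55 to 0.76 for fibroblasts, 0.67 to 0.94 for collagens and matrix, 0.15 to 0.52 for mesothelium, 0.41 to 0.68 for blood and lymph vessels, 0.04 to 0.24 for macrophages, -0.58 to -0.15 for lymphocytes and plasma cells, -0.10 to -0.02 for epithelium, general, -1.57 to -1.29 for enterocytes, 0.61 to 1.04 for ileal enterocytes, -0.00 to 0.17 for goblet cells, -0.15 to 0.13 for Paneth cells, 0.26 to 0.44 for crypt and cell cycle, -0.14 to -0.04 for enteroendocrine cells, -0.15 to 0.14 for tuft cells, 2.62 to 3.45 for adipocytes, 0.71 to 1.17 for skeletal muscle, -0.04 to 0.54 for pancreas, acinar.

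In the study contrasts DESeq2 called 13 genes in HFD vs. CD (quasi-likelihood test 0) and 4 in CDmetf vs. CD (0). Leaving out 1 library at a time gave 0 to 1 in HFD vs. CD (1 without CD F1), and 0 to 0 in the other 3 contrasts. For males vs. females the test called 1 gene, against 15 without a filter, 8 without HFD M2 and HFD F2, 2 with the muscle covariate, 22 with DESeq2 and 1 to 8 when 1 library was left out (8 without HFD M2, 7 without HFD F2, 4 without HFDmetf M3, 3 without CDmetf M3 and 2 without CD M1 or CD M3). For the replicate number it called 2333, against 4501 with limma-voom, 4109 with DESeq2 and 1269 to 4080 when 1 library was left out (4080 without CD M3, 1269 without HFDmetf F3, 1282 without CD F3, 1344 without CDmetf M3 and 1427 without HFD F1). Without the replicate block the contrasts of diet and metformin again called 0 genes and males vs. females 1. Libraries of the same replicate number shared deviations only in part (mean correlation 0.144 over 84 pairs, 49 of them over 0.1, lowest -0.466, against -0.0718 over 168 pairs of different numbers), so the numbers are not shown to pair the animals.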
